A study of Mus musculus with 30 samples.

Results

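The matricellular wound repair genes are a set of 9 genes, Postn, Cthrc1, Tnc, Tnn, Spon1, Spon2, Fn1, Sparc and Mest, out of 23267 genes measured in mouse aorta. They were chosen by name for an early rise after surgery and a later decline, so measured values of these same arrays chose them, and their time course is described without a test. The arrays carried 14 probes of 60 bases for them, and all 14 passed the filter on dim probes, which kept a probe that the scanner software called well above background on all 3 arrays of at least 1 of the 10 groups. Tnn passed it through its CaCl2 groups and Cthrc1, Mest and Spon2 fell below background on some arrays, so passing is no support for any difference given here.

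Matricellular proteins are secreted into the extracellular matrix but act mainly on cells, through integrins and growth factors, rather than as structural fibres. They are low in most resting adult tissue and are made again by fibroblasts and smooth muscle cells when a tissue heals. In the arterial wall they are known from the response of the adventitia and media to injury.

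The study compared wild type (WT) mice with uMT mice, a B cell-deficient line, both labelled as strain C57BL/6. Groups of 3 arrays were taken before any operation (pre), and at day 7 or day 42 after 0.5 M CaCl2, or saline as the sham operation, was laid on the outside of the abdominal aorta. CaCl2 on the vessel is used to model aneurysm in mice, and the comparisons ask what it does beyond surgery and whether a lack of B cells alters it. The uMT line carries a disrupted immunoglobulin mu heavy chain gene in every cell, so B cells are missing from birth and not only after CaCl2. The labels put the same tissue term, abdominal aortic aneurysm, on unoperated and sham samples too, give no age, and do not say whether animals were pooled. Nothing states that the 3 arrays of a group came from separate mice, so p-values measure the spread between these samples, which may be technical.

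Each array was hybridised with 1 sample, and 36.5% to 61.8% of its probes were well above background. All 6 contractile smooth muscle markers were above background on all 3 arrays of every group, while the B cell marker Ms4a1 was above background on no array of any uMT group. The summed level of the 4 B cell markers overlapped between genotypes in pre (-1.66 to -1.07 in WT, -1.32 to -0.50 in uMT mice). It also overlapped at sham day 7 (0.08 to 1.04 and 0.03 to 0.24). At sham day 42 and at both CaCl2 days the sum was lower in uMT mice without overlap. The second WT sham day 42 array stood apart: it was the dimmest, lay alone on its slide and was scanned on a day of its own, and its lowest correlation with its group mates was 0.722, so results that rest on it are given with and without it. The uMT CaCl2 arrays lay on 1 slide and the uMT sham arrays on another, so for uMT mice the slide and CaCl2 cannot be told apart. With bulk tissue, fewer cells of a type and less RNA per cell cannot be told apart.

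Upstream sequence was looked up for the members in RefSeq on GRCm38.p6, and 5 of the 9 matched, Postn, Tnc, Tnn, Sparc and Mest. The 250 bases before a start site are shown for 3 genes that mark the different time courses below: Postn (chr3:54360857-54361106, plus strand) and Mest (chr6:30737800-30738049, plus strand), whose levels over the groups ran most closely alike among the members with an entry, and Tnn (chr1:160153576-160153825, minus strand), which did not follow sham surgery. Capitals mark matches to any of 4 motifs searched on both strands.
Postn: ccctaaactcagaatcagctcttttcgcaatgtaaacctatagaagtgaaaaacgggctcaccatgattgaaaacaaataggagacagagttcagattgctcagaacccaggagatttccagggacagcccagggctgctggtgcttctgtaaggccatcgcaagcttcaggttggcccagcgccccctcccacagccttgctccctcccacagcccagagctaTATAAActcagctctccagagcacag
Mest: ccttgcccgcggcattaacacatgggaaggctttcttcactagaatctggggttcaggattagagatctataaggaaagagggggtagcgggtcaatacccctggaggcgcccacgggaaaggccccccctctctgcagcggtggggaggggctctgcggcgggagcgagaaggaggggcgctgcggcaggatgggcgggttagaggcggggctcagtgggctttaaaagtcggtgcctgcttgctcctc
Tnn: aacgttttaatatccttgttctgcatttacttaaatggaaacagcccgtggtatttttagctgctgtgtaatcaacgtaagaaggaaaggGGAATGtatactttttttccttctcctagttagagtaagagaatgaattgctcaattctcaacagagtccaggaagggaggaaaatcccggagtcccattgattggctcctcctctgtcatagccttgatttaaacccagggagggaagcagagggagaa
The capitals in Postn are a TATA box (TATAAA, searched in those letters), which starts at position -26 from the start site and is a match held by 12.4% of the 32851 windows of this length. The capitals in Tnn are a TEAD site (GGAATG), at position -160, held by 12.6% of windows. No window of the 5 genes held an AP-1 site (TGANTCA, 6.75% of windows) or a CArG box (1.47% of windows), and the Mest window shown held none of the 4 motifs. These motifs do not overlap one another, and a match describes the letters only.

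Levels are log2 of the background-subtracted signal minus the array's 75th percentile, so 0 is the array's 75th percentile itself, and levels of different genes are not compared. Where a gene had several probes, the brightest stands for it unless stated. The plot of levels on every array shows all 9 genes.

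**Figure D1:**
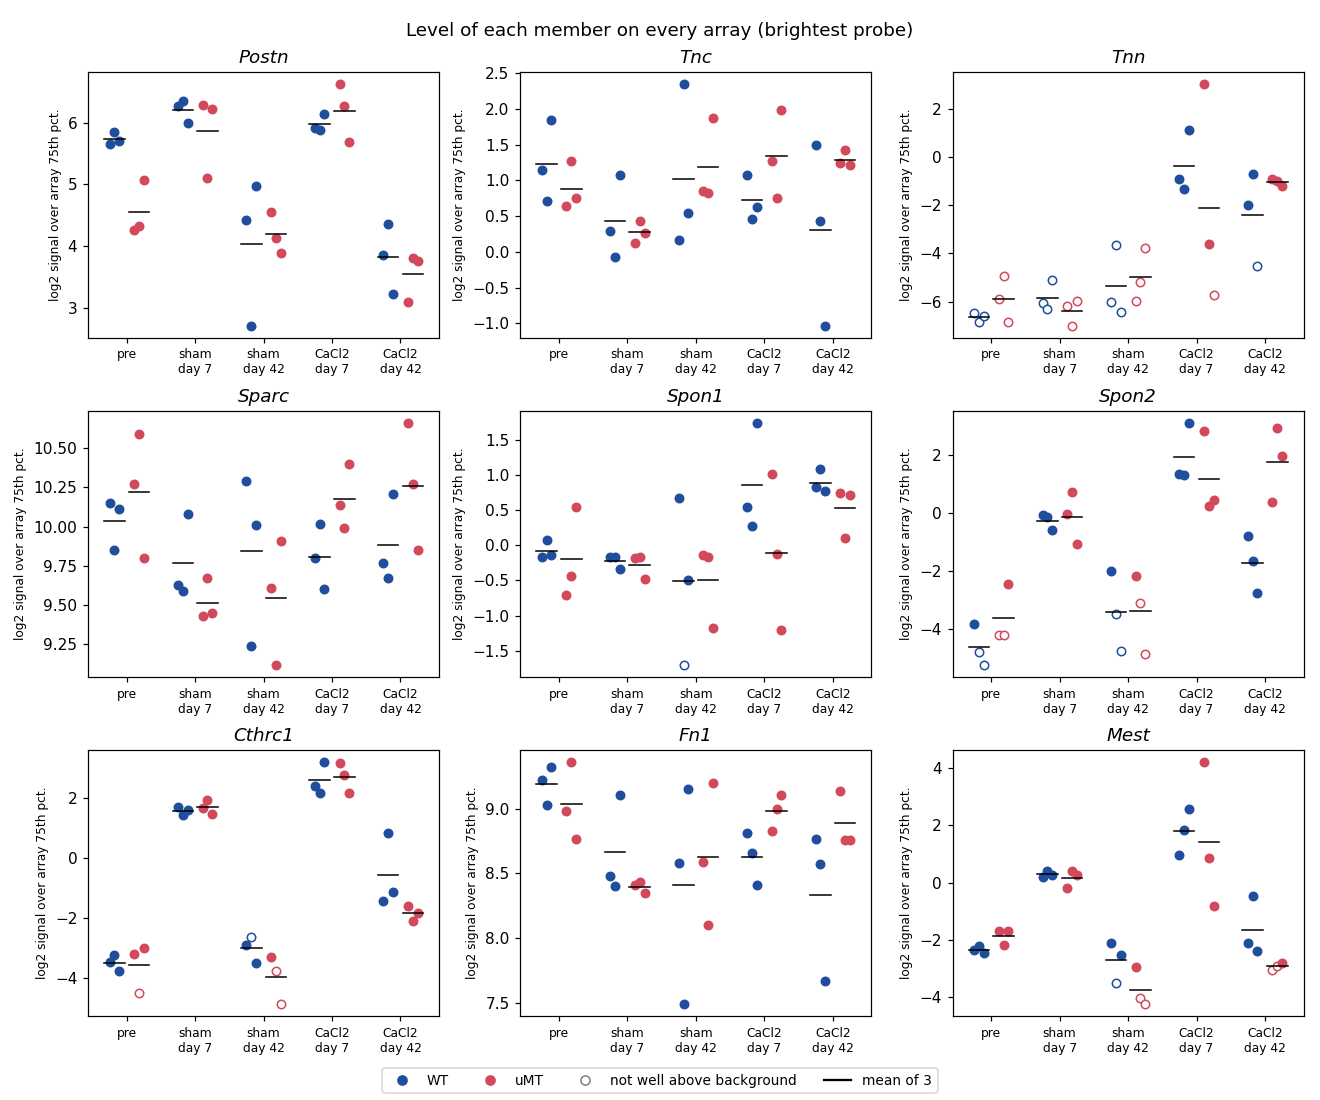
Level of each of the 9 genes on all 30 arrays, as log2 signal over the array's 75th percentile, by condition, WT in blue and uMT in red, with open points not well above background and lines at the mean of 3 arrays. Cthrc1 at day 7 lay between 1.42 and 3.19 on all 12 arrays and at -2.98 or below on all 6 pre arrays; Tnn was filled only after CaCl2.

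Cthrc1, a secreted triple helix repeat protein made by activated fibroblasts in injured arteries, had the clearest course. In WT mice it stood at -3.45, -3.22 and -3.77 before surgery and at 1.69, 1.42 and 1.61 at sham day 7. The day 7 arrays were all above the pre arrays, by 5.05 ± 0.48 (log2 difference ± SE of the fit, n = 3 against 3), or 33.1-fold. By sham day 42 the WT arrays were at -2.88, -2.63 and -3.51, the second not above background, and all lay under the day 7 arrays, by -4.58 ± 0.48.

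The uMT mice had the same course for Cthrc1. Their pre arrays were at -3.20, -4.50 (not above background) and -2.98, and their sham day 7 arrays at 1.68, 1.93 and 1.48. At sham day 42 they were at -3.31, -3.76 and -4.86, and only the first was above background. After CaCl2 the day 7 arrays were at 2.40, 2.17 and 3.19 in WT and at 3.18, 2.77 and 2.18 in uMT mice. Both CaCl2 groups lay above both sham day 7 groups without overlap.

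Cell markers, summed over the list of each cell type, moved over the same sham steps. From pre to sham day 7 in WT mice the macrophage sum went from between 4.71 and 5.35 to between 6.74 and 7.00, the fibroblast sum from between 10.32 and 10.50 to between 10.68 and 10.96, and the smooth muscle sum from between 9.90 and 10.06 down to between 9.08 and 9.42, none overlapping. In uMT mice only smooth muscle was apart of these 3, at 9.44 to 9.86 and then 8.86 to 9.25. By sham day 42 the macrophage sums were at 3.66 to 6.34 in WT and 4.84 to 6.24 in uMT mice, below every sham day 7 array of their genotype. The markers' part in the rise and decline of the 9 genes was not tested.

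Mest, an imprinted gene for an endoplasmic reticulum protein of the hydrolase fold, is expressed in growing mesenchyme and fat and is not itself a secreted matrix protein. Its WT arrays were at -2.35, -2.23 and -2.46 before surgery, at 0.20, 0.41 and 0.26 at sham day 7, and at -2.12, -3.52 (not above background) and -2.54 at sham day 42. Sham day 7 lay 2.64 ± 0.75 above pre and sham day 42 lay -3.02 ± 0.75 from day 7, with no overlap in either step.

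In uMT mice Mest stood at -1.70, -2.20 and -1.71 before surgery and at -0.19, 0.42 and 0.26 at sham day 7. At sham day 42 it was at -2.97, -4.05 and -4.25, below the pre arrays, with only the first above background. CaCl2 day 7 gave its highest and most uneven levels, 0.97, 1.85 and 2.57 in WT mice and 4.21, 0.86 and -0.81 in uMT mice. Array 1 of the uMT group was the highest of all 30, and array 3 lay below every sham day 7 array.

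Spon2, also called mindin, is a secreted F-spondin family protein that binds integrins and bacterial lipopolysaccharide and acts in innate immune recognition. WT pre arrays were at -3.85, -4.82 and -5.25, and only the first was above background. Sham day 7 brought it to -0.06, -0.12 and -0.59, a difference of 4.38 ± 0.84, and at sham day 42 it was back at -1.99, -3.48 and -4.78, again with only the first above background. The uMT sham arrays ran alike, at -0.02, 0.73 and -1.07 at day 7 and at -2.19, -3.10 and -4.88 at day 42.

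After CaCl2, the decline of Spon2 by day 42 was seen on WT arrays and not on uMT arrays, a difference in course that was not tested. WT arrays went from 1.36, 1.34 and 3.12 at day 7 to -0.78, -1.66 and -2.78 at day 42, a difference of -3.68 ± 0.84 with no overlap. The uMT arrays were at 2.86, 0.26 and 0.45 at day 7 and at 0.40, 2.95 and 1.98 at day 42, overlapping groups that differed by 0.59 ± 0.84. The later decline was therefore seen in 3 of the 4 settings for this gene, and the test of the genotypes at day 42 is given with the genotype comparisons.

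Postn encodes periostin, which binds collagen, tenascin C and integrins and helps to cross-link collagen in healing tissue. WT arrays were at 5.66, 5.85 and 5.70 before surgery, and sham day 7 added little (6.27, 6.36 and 6.00, a difference of 0.47 ± 0.43 without overlap). In uMT mice pre arrays were lower, at 4.26, 4.32 and 5.08, and sham day 7 arrays were at 6.29, 5.10 and 6.23, a difference of 1.32 ± 0.43. The larger movement was the later one.

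At sham day 42 Postn stood at 4.42, 2.71 and 4.97 in WT and at 4.56, 4.13 and 3.89 in uMT mice, below every day 7 array. After CaCl2 the values were similar: day 7 arrays were at 5.92, 5.89 and 6.15 in WT and at 6.63, 6.27 and 5.69 in uMT mice. At CaCl2 day 42 they were at 3.86, 4.36 and 3.23 in WT and at 3.10, 3.80 and 3.76 in uMT mice. The WT arrays at CaCl2 day 42 lay -1.92 ± 0.43 from pre, with no overlap. The uMT arrays at CaCl2 day 42 were also all below the uMT pre arrays. After CaCl2 the gene thus ended under its starting level in WT and in uMT mice. The second WT sham day 42 array was the lowest of all 30 for Postn, and without it the step from sham day 7 to day 42 was -1.52 in place of -2.18.

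Counts over the 9 genes show how far the rise and decline held. From pre to sham day 7, 5 genes were higher without overlap in WT mice (16.4% of all genes were) and 4 in uMT mice (15.3% of all genes). The WT count includes Tnn, which was not above background on any pre or sham array. From sham day 7 to day 42, 4 genes were lower without overlap in each genotype, against 9.79% of all genes in WT and 27.3% in uMT mice. After CaCl2, 6 genes were higher at day 7 than pre in WT mice (32.1% of all genes) and 4 in uMT mice (15.5%), and 4 and 3 were lower at day 42 than at day 7 (11.5% and 15.6%). Movements the other way also occurred: 1 gene was lower at sham day 7 than pre in WT mice (14.6% of all genes) and 3 in uMT mice (17.6%), 1 was lower at CaCl2 day 7 than pre in WT mice (26.7%), and 1 was higher at sham day 42 than at day 7 in uMT mice (23.1%). Because the time course chose the genes, nothing is read from these counts. The signs of both sham steps for Cthrc1, Mest, Spon2 and Postn were kept under all 4 other scalings tried and without the dim arrays.

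Fn1, Sparc, Tnc and Spon1 did not show the labelled course after sham surgery. Fn1 encodes fibronectin, the provisional matrix protein that cells grip through integrin alpha 5 beta 1. Its 30 levels ran from 7.49 to 9.36 with a median of 8.76, and pre arrays were among the highest (9.22, 9.03 and 9.32 in WT mice). Sham day 7 lay -0.53 ± 0.34 from pre in WT and -0.64 ± 0.34 in uMT mice, and the uMT sign turned under quantile normalization (0.24).

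Sparc, a collagen-binding protein also called osteonectin, ran from 9.12 to 10.66 with a median of 9.88 by its brighter probe. The differences between time points were at most 0.70 in size, but with normexp background correction and quantile normalization the step from sham day 7 to day 42 was -0.79 in WT and -1.01 in uMT mice. The sign of sham day 7 against pre changed with the scaling in both genotypes.

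Tnc encodes tenascin C, a hexameric glycoprotein that appears at wound edges and signals through integrins and TLR4. Its brightest probe ran from -1.03 to 2.35 with a median of 0.80. WT pre arrays were at 1.14, 0.71 and 1.85 and sham day 7 arrays at 0.29, -0.07 and 1.08, which overlap, with a difference of -0.80 ± 0.53. The highest of all 30 values, 2.35, came from the dim WT sham day 42 array, and without it the step from sham day 7 to day 42 was -0.08 in place of 0.59.

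Spon1, or F-spondin, is an adhesion protein best known from the developing nervous system. Its levels ran from -1.70 to 1.74 with a median of -0.14. WT arrays stood at -0.16, 0.07 and -0.14 before surgery and at -0.17, -0.16 and -0.33 at sham day 7, groups that did not overlap but differed by -0.14 ± 0.51, with sham the lower. The 6 WT CaCl2 arrays, from 0.27 to 1.74, were all above those 6 arrays.

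Tnn, tenascin N (also tenascin W), is a tenascin found around bone, dense connective tissue and tumours. It was not above background on any of the 18 pre and sham arrays, which lay between -6.99 and -3.64. It was above background on 10 of the 12 CaCl2 arrays. WT CaCl2 arrays were at -0.91, -1.32 and 1.11 at day 7 and at -2.01, -0.73 and -4.52 at day 42, the last not above background. In uMT mice the day 7 arrays were at 3.02, -3.61 and -5.73, the last not above background, and the day 42 arrays at -0.92, -0.98 and -1.20. Its first uMT day 7 array is thus the highest and array 3 is among the sham values, the same order as for Mest.

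The 3 uMT CaCl2 day 7 arrays also differed in cell markers. The summed level of the 6 contractile smooth muscle markers was 6.10, 8.77 and 9.40 on arrays 1, 2 and 3, and that of the 5 macrophage markers 7.60, 6.62 and 6.16. The WT CaCl2 day 7 arrays had smooth muscle sums from 6.22 to 7.54. The array with the least smooth muscle signal is therefore the one with the most Tnn, Mest and Spon2, and whether the markers play a part in these levels was not tested.

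The rule that chose the genes names steps in time and not CaCl2 against sham on the same day. It was applied to these same arrays with earlier results known, so the tests that follow are no independent support for the choice. CaCl2 was compared with sham by limma over all 23267 genes with Benjamini-Hochberg adjustment, 2-sided, at an adjusted p of 0.05. The plot of CaCl2 minus sham shows the 9 differences in each genotype and day.

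**Figure D2:**
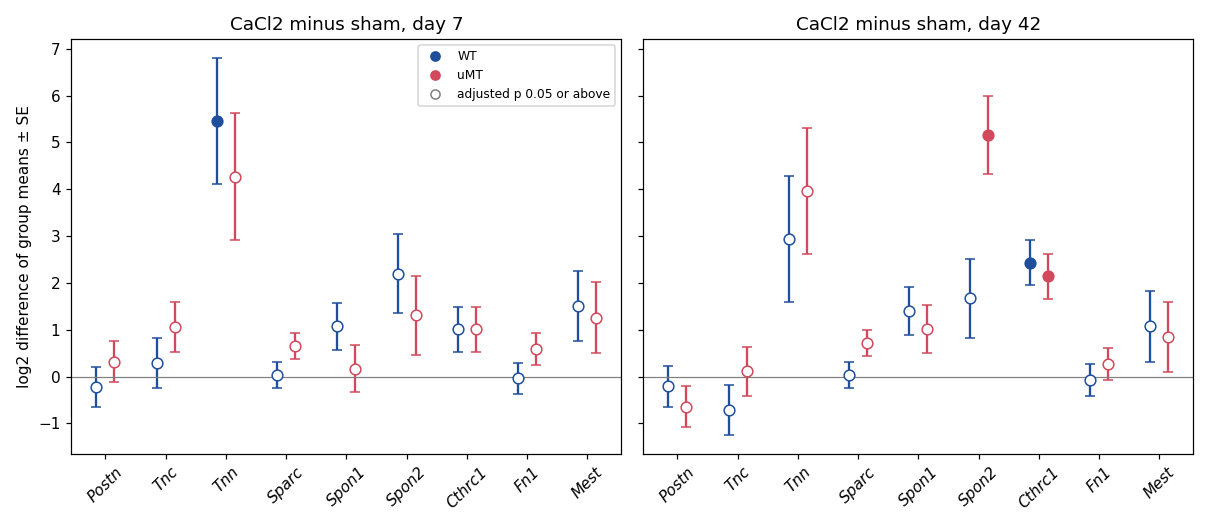
Difference of group means, CaCl2 minus sham, on the log2 scale with the SE of the fit (n = 3 arrays against 3), for WT (blue) and uMT (red) mice at day 7 and day 42; filled points have an adjusted p under 0.05. The 4 filled points are Tnn in WT mice at day 7, Cthrc1 in both genotypes at day 42 and Spon2 in uMT mice at day 42, and all 4 lie above 0.

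In WT mice at day 7, Tnn was higher after CaCl2 and was the only one of the 9 genes called. Because it passed the filter on dim probes through its CaCl2 groups alone, it entered this test only by being high there; with no filter it was called too (limma adjusted p = 0.0268), and where probes had to be above background on 15 arrays it was not tested. The mean was -0.38 ± 1.30 (SD, n = 3) after CaCl2 and -5.83 ± 0.64 after sham, where no array was above background, a difference of 5.46 ± 1.35 (limma adjusted p = 0.0166). Against the lowest signal well above background on the sham arrays, this is at least 19-fold higher. In the same comparison 6.59% of all genes were called. Of the rest, Cthrc1 (1.01 ± 0.48), Mest (1.51 ± 0.75), Spon1 (1.07 ± 0.51) and Spon2 (2.20 ± 0.84) were also higher on every CaCl2 array than on any sham array, without passing the adjusted test, with limma adjusted p from 0.125 to 0.259. That is 5 of 9 genes higher without overlap by the brightest probe, against 30.3% of all genes. By their second probes Spon1 (0.69) and Mest (0.91) overlapped. Postn (-0.22 ± 0.43), Tnc (0.29 ± 0.53), Sparc (0.04 ± 0.28) and Fn1 (-0.04 ± 0.34) overlapped.

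The Tnn call at day 7 was lost with normexp background correction (1.95, limma adjusted p = 0.115) and with slide as a random block (5.70, adjusted p = 0.276) or a fixed block (5.89, adjusted p = 0.352). WT CaCl2 and sham day 7 arrays share no slide. Their slides are linked only by WT sham day 42 arrays 1 and 3, where Tnn was at -6.01 and -6.44, neither above background. The fixed block therefore cannot tell slide from CaCl2 for Tnn, and nothing is read from the size of its difference. The call was also lost without sham array 1 (adjusted p = 0.0666), sham array 2 (adjusted p = 0.0656) or CaCl2 array 3 (adjusted p = 0.107), and kept in 36 of 42 alternatives. Smooth muscle marker sums were 9.08 to 9.42 after sham and 6.22 to 7.54 after CaCl2, those of the 5 macrophage markers 6.74 to 7.00 and 7.36 to 7.93, and those of the 5 fibroblast markers 10.68 to 10.96 and 10.82 to 11.08. All markers of these lists were above background in both groups, and their part in the difference was not tested.

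In uMT mice at day 7 none of the 9 genes was called by limma, and 3 of them had an unadjusted p under 0.05, where 0.894% of all genes were called and 15.2% had such a p. Tnn had the largest difference, 4.27 ± 1.35 (limma adjusted p = 0.120), with all CaCl2 arrays above all sham arrays. No sham array and 2 of 3 CaCl2 arrays were above background, so the Tnn difference is no measured size. Tnn was called without CaCl2 array 3 (6.08, adjusted p = 0.0243) or without the dim WT sham day 42 array, which enters through the pooled spread (adjusted p = 0.0455). Without that dim array 2284 of all 23267 genes were called. Cthrc1 differed by 1.01 ± 0.48, the size found in WT mice. Sparc differed by 0.66 ± 0.28 and Tnc by 1.06 ± 0.53, each without overlap and with limma adjusted p of 0.252 and 0.347. The dimmer second probe of Sparc went the other way (-0.17). By it the CaCl2 arrays (6.80, 6.97 and 7.00) were all below the sham arrays (7.05, 7.14 and 7.08). By the second probe of Tnc the difference was 0.78, with overlap. Fn1 differed by 0.58 ± 0.34 without overlap (limma adjusted p = 0.437), while Spon2 (1.31 ± 0.84), Mest (1.26 ± 0.75), Postn (0.32 ± 0.43) and Spon1 (0.17 ± 0.51) overlapped. In all, 5 genes were higher without overlap by their brightest probe, against 16.4% of all genes.

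At day 42 Cthrc1 was higher after CaCl2 in WT mice, at -1.43, 0.84 and -1.14 against -2.88, -2.63 and -3.51 after sham. The groups did not overlap, and the difference was 2.43 ± 0.48 (limma adjusted p = 0.00264). It was the only one of 9 genes called, where 10.4% of all genes were. On the slide that holds the 3 CaCl2 arrays and 1 sham array, the difference was 2.94. The call was kept in 42 of 43 alternatives and lost when the 2 groups were fitted alone (adjusted p = 0.324), a fit in which no gene at all was called.

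With Cthrc1, Spon1 made 2 of 9 genes higher without overlap at day 42 in WT mice, against 11.2% of all genes, at 0.83, 1.08 and 0.77 against 0.68, -1.70 and -0.49 after sham. Its difference of 1.40 ± 0.51 had a limma adjusted p of 0.0787, and was 1.99 (adjusted p = 0.0105) without sham array 1. The lowest sham value came from the dim array, where Spon1 was not above background, and without that array the difference was 0.80 (adjusted p = 0.307). Spon2 differed by 1.67 ± 0.84 and Tnn by 2.94 ± 1.35, both with overlap. For Tnn no sham array was above background and CaCl2 array 3 was not either, so its difference is no measured size. Mest (1.07 ± 0.75), Sparc (0.04 ± 0.28), Fn1 (-0.07 ± 0.34), Postn (-0.21 ± 0.43) and Tnc (-0.72 ± 0.53) overlapped too. The Tnn difference was called without the first uMT CaCl2 day 7 array, which enters through the pooled spread (adjusted p = 0.0245).

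In uMT mice at day 42, Spon2 and Cthrc1 were higher after CaCl2, and 6.33% of all genes were called. Spon2 stood at 0.40, 2.95 and 1.98 after CaCl2 and at -2.19, -3.10 and -4.88 after sham, a difference of 5.16 ± 0.84 (limma adjusted p = 6.33e-04). Cthrc1 stood at -1.60, -2.08 and -1.82 against -3.31, -3.76 and -4.86, a difference of 2.14 ± 0.48 (limma adjusted p = 0.00859). Neither pair of groups overlapped, and for both genes only the first sham array was above background.

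Both uMT calls at day 42 were lost with slide as a random block (limma adjusted p = 1 for each), where no gene was called and the differences were 5.07 for Spon2 and 1.65 for Cthrc1. Without the 6 arrays on which under 50% of probes were above background, a setting chosen after seeing the data, 1 array is left in each of these groups. The differences were then 4.17 and 1.49 (adjusted p = 0.482 and 0.873), with the lone arrays assumed to vary like the other groups, so the lost calls say little. The correlation within slides behind that block was 0.782, and -0.0687 without the dim WT sham day 42 array. With the block and without that array 4 of the 9 genes were called, Spon2, Cthrc1, Tnn and Sparc, where 4879 of all 23267 genes were. The Cthrc1 call was also lost with normexp (0.72, adjusted p = 0.159) and without sham array 3 (1.70, adjusted p = 0.0876). Tnn differed by 3.96 ± 1.35 (adjusted p = 0.0831) without overlap, at least 4.17-fold since no sham array was above background, Spon1 by 1.02 ± 0.51 without overlap, and Postn by -0.64 ± 0.43 with all CaCl2 arrays lower. Mest (0.84 ± 0.75), Sparc (0.72 ± 0.28), Fn1 (0.26 ± 0.34) and Tnc (0.11 ± 0.53) overlapped. Of 9 genes, 4 were higher and 1 lower without overlap, against 13.8% and 12.8% of all genes.

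Markers moved with these day 42 results as well. Fibroblast sums were 8.94 to 10.88 after sham and 10.98 to 11.26 after CaCl2 in WT mice, and 8.96 to 10.20 and 10.66 to 11.27 in uMT mice. Smooth muscle sums were at least 9.62 after sham and 6.76 to 8.19 after CaCl2 in WT, and 9.44 to 10.10 and 7.22 to 8.60 in uMT mice. Macrophage sums were 3.66 to 6.34 and 7.34 to 7.74 in WT, and 4.84 to 6.24 and 7.12 to 7.69 in uMT mice. Every sham and CaCl2 range is thus separate, all 5 fibroblast and all 6 smooth muscle markers were above background in each group, and the markers' part in the Cthrc1 and Spon2 differences was not tested.

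Whether the CaCl2 difference itself changed between day 7 and day 42 was tested as an interaction. None of the 9 genes was called by limma in either genotype, with 1 at an unadjusted p under 0.05 in each, where 0% of all genes were called in WT and 0.0430% in uMT mice and 6.63% and 7.80% had such a p. In WT mice the Cthrc1 difference was larger at day 42 by 1.42 ± 0.68 (limma adjusted p = 0.544). In uMT mice the Spon2 difference was larger at day 42 by 3.86 ± 1.19 (limma adjusted p = 0.306).

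The 2 genotypes were compared within each condition. In no condition did a WT and a uMT array share a slide, so each difference between genotypes is also one between slides. The plot of uMT minus WT shows the difference of every gene in every condition.

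**Figure D3:**
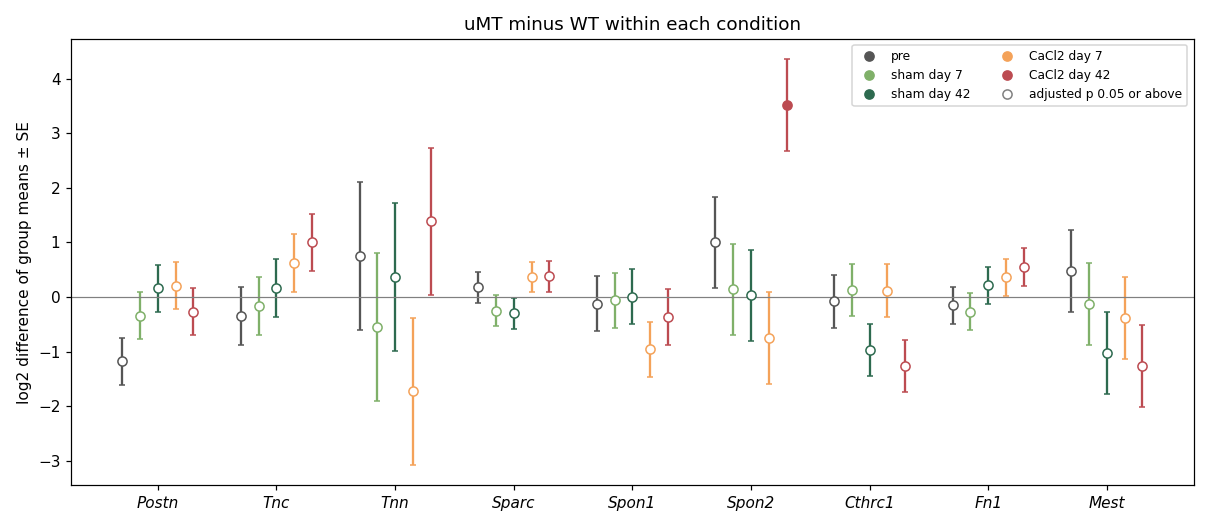
Difference of group means, uMT minus WT, on the log2 scale with the SE of the fit (n = 3 arrays against 3), for each gene in 5 conditions; filled points have an adjusted p under 0.05. The single filled point is Spon2 at CaCl2 day 42, at 3.52, and Cthrc1 and Mest at that time are both at -1.26 with open points.

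After CaCl2 at day 42, Spon2 was higher in uMT than in WT mice. The arrays stood at 0.40, 2.95 and 1.98 against -0.78, -1.66 and -2.78, with no overlap and a difference of 3.52 ± 0.84 (limma adjusted p = 0.0388). It was the only one of the 9 genes called, where 1.31% of all genes were, and the only one higher without overlap, as 13.4% of all genes were. The call was kept in 30 of 42 alternatives, with a difference from 2.50 to 4.21, and the adjusted p passed 0.05 without 7 single arrays in turn, among them CaCl2 day 42 arrays 2 and 3 of WT mice (adjusted p = 0.0986 and 0.258) and arrays 2 and 3 of uMT mice (adjusted p = 0.189 and 0.0739). The other 3, which enter through the pooled spread, were WT pre array 2 (adjusted p = 0.0501), WT sham day 7 array 2 (adjusted p = 0.0514) and uMT sham day 7 array 1 (adjusted p = 0.0503). The 2 groups lay on different slides, and with slide as a random block the difference was 2.50 (adjusted p = 1). No other condition showed a Spon2 call: the difference was 0.03 ± 0.84 at sham day 42 and -0.75 ± 0.84 at CaCl2 day 7.

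The genotype difference in the CaCl2 response of Spon2 at day 42, tested itself, was 3.49 ± 1.19 (limma adjusted p = 0.732), so a different response in the 2 genotypes was not shown. None of the 9 genes was called by limma in this test at day 7 (0% of all genes) or at day 42 (0.107%). At an unadjusted p under 0.05 there was none of the 9 at day 7, against 4.22% of all genes, and 1 at day 42, against 5.66%. Macrophage sums at CaCl2 day 42 were 7.34 to 7.74 in WT and 7.12 to 7.69 in uMT mice, and fibroblast sums 10.98 to 11.26 and 10.66 to 11.27, both overlapping. Schwann cell sums were apart, at 2.71 to 2.98 in WT and 3.36 to 3.79 in uMT mice, with 3 of 4 markers above background on all arrays of both groups. Adipocyte sums were 1.82 to 2.63 in WT and -0.55 to 2.53 in uMT mice, with means of 2.27 and 0.69. The part of these markers in the Spon2 difference was not tested.

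At the same time point Cthrc1, Mest and Spon1 lay lower in uMT mice without overlap, 3 of 9 genes against 21.6% of all genes. The differences were -1.26 ± 0.48, -1.26 ± 0.75 and -0.37 ± 0.51, with limma adjusted p of 0.197, 0.401 and 0.747. For Mest only 1 of the 3 uMT arrays was above background.

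In the other conditions limma called none of the 9 genes. The share of all genes called was 0.0903% in pre, 0.0172% at sham day 7, 4.13% at sham day 42, 0.219% at CaCl2 day 7 and 2.97% for the average over the 5 conditions. An unadjusted p under 0.05 was held by 1 of the 9 genes in pre (11.9% of all genes) and by 1 for the average (16.9%). It was held by none at sham day 7 (1.1%), sham day 42 (18.9%) and CaCl2 day 7 (11.4%). Without overlap, 1 gene was higher (Mest, 17.5% of all genes) and 1 lower (Postn, 8.53%) in pre, and 1 was higher at CaCl2 day 7 (Fn1, 9.83%). The low p in pre belonged to Postn, lower in uMT mice by 1.18 on the log2 scale without overlap (-1.18 ± 0.43, limma adjusted p = 0.236). This became adjusted p = 0.0336 without the dim WT sham day 42 array, and the Postn average became -0.41 (adjusted p = 0.0444). Far more genes were called without that array, 1598 of all 23267 in pre and 6036 for the average. Without the first uMT CaCl2 day 7 array, Tnn at CaCl2 day 7 was lower in uMT than in WT mice (-4.30, adjusted p = 0.00999), where with it the difference was -1.73 ± 1.35. That array held the highest Tnn level of any array, 3.02, so leaving it out lowers the uMT mean and narrows the pooled spread. Array 3 of that group was not above background, so neither difference is a measured size. The all-gene count of that fit is not given, and nothing is read from the call.

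Different probes of a gene were set side by side for the 4 genes that had several. The probes of Tnc are shown because they read different stretches of its transcript and did not give the same course. Probe 1 starts at base 2590 of the transcript and spans 764 bases of the genome (mm9, chr4:63674248-63675011, minus strand), so an intron lies within it. Probe 2 starts at base 4868 (chr4:63643728-63643787, minus strand) in a stretch without a gap.
Tnc probe 1: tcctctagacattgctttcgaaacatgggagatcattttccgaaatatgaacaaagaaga
Tnc probe 2: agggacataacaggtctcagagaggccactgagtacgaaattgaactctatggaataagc
From sham day 7 to day 42, probe 1 gave 0.59 in WT and 0.91 in uMT mice where probe 2 gave -0.45 and -0.34. In WT mice the step of probe 1 rests on the dim array, without which it gave -0.08, the sign of probe 2. In uMT mice probe 1 stayed above 0 in every setting tried, from 0.58 to 1.06. The step of probe 2 was computed with the main scaling only. Its uMT arrays overlapped, at -1.20, -1.17 and -1.04 at sham day 7 and -1.97, -1.38 and -1.08 at day 42. The 2 means thus differed in direction, but the direction of probe 2 is not settled. Alternative splicing of the fibronectin repeats of tenascin C is well known, and whether it bears on these probes was not tested. After CaCl2 both probes pointed the same way in each comparison with sham, at 0.72 for probe 2 in WT mice at day 7 and -0.34 at day 42.

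**Figure D4:**
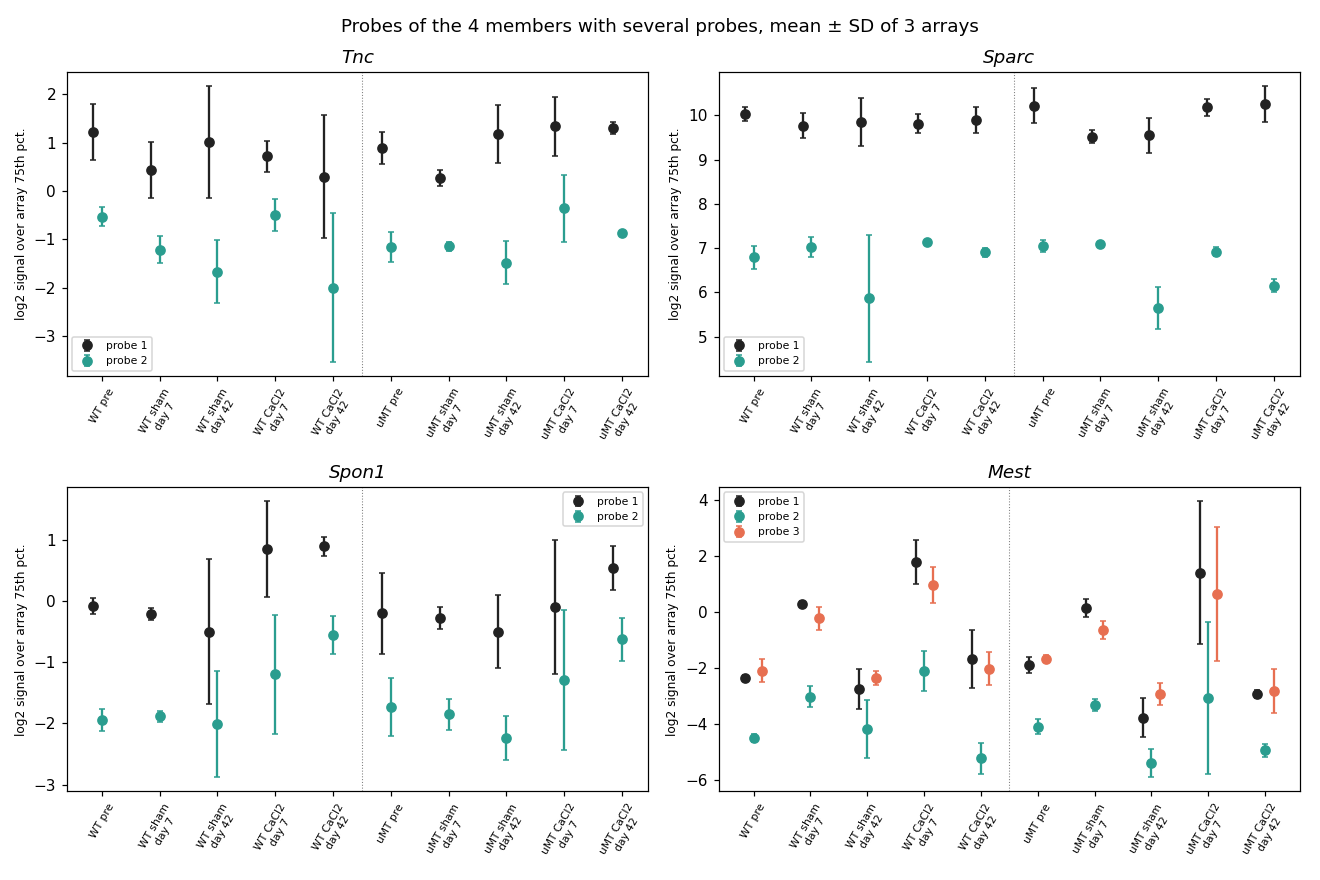
Level of every probe of Tnc, Sparc, Spon1 and Mest by group, as log2 signal over the array's 75th percentile, mean ± SD of 3 arrays, WT left of the dotted line and uMT right of it. Probe 2 of Sparc drops at sham day 42 in uMT mice, to between 5.10 and 5.97, while probe 1 stays between 9.12 and 9.91.

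The probes of Sparc also disagreed. Its dimmer probe 2, further along the transcript (from base 2240 against 1303 for probe 1), went from 7.05, 7.14 and 7.08 at sham day 7 to 5.87, 5.10 and 5.97 at sham day 42 in uMT mice, a difference of -1.44, where probe 1 gave 0.03. With normexp and quantile normalization probe 1 gave -1.01. The step of probe 2 was not computed with that scaling, so whether the contrast between the probes depends on the scaling was not tested. In WT mice probe 2 stood at 6.71, 4.20 and 6.67 at sham day 42, and the low value came from the dim array. By probe 2 the uMT sham groups did not overlap, and by probe 1 they did.

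The 3 probes of Mest agreed on the course, with day 7 above pre by 2.64, 1.48 and 1.86 in WT sham mice for probes 1, 2 and 3. The second probe was above background on 12 of 30 arrays and on none of the WT pre arrays, so its difference is no measured size. At WT day 42 CaCl2 minus sham was 1.07 for probe 1 and 0.35 for probe 3, while probe 2 was not above background on any of the 6 arrays. Both Spon1 probes had a higher mean after CaCl2 in all 4 comparisons with sham, the second by 0.69 and 1.45 in WT and by 0.55 and 1.60 in uMT mice at days 7 and 42. In uMT mice at day 7 the groups overlapped by both probes. In WT mice at day 7 they overlapped by probe 2, with a CaCl2 array at -2.06 and sham arrays at -1.80, -1.86 and -1.99.

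Over the 10 group means, some members ran alike. Cthrc1 ran with Mest (r = 0.94) and Spon2 (r = 0.81), Postn with Mest (r = 0.80), Fn1 with Sparc (r = 0.70) and Tnn with Spon1 (r = 0.78). Tnn also ran with Spon2 (r = 0.74) and Fn1 with Tnc (r = 0.67), so the pairs do not part into separate sets. Cthrc1 and Fn1 were at r = -0.24. These describe 10 points that share arrays and scaling, and the pairs above were picked from all 36 after their values were seen.

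The genes outside the set whose 10 group means lay nearest the members' mean profile were Bend4 (r = 0.953), Col27a1 (r = 0.950), a fibrillar collagen, Lpcat1 (r = 0.930), Kctd11 and Tmeff1 (r = 0.927 each), Fam102b (r = 0.926), Gpr153 and Sesn3 (r = 0.925 each), Mrc2 (r = 0.922), the collagen uptake receptor, and Htt (r = 0.921). They were ranked among 11758 named genes whose group means spanned at least 1 log2 unit. That profile was highest at CaCl2 day 7 (mean z score 0.79 in WT and 0.93 in uMT mice) and lowest at sham day 42 (-0.66 and -0.72). The members' own r with it ran from 0.210 for Tnc to 0.772 for Spon2.

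Companion genes from 7 lists put the members in context, counted as called by limma out of those measured, CaCl2 against sham. Of 19 receptors listed for the members, 18 were measured. In WT mice 1 rose and 2 fell at day 7 and 5 rose and 1 fell at day 42, and in uMT mice 1 rose at day 7 and 2 rose and 2 fell at day 42. Ror2, the Wnt5a receptor to which Cthrc1 binds, rose in all 4 comparisons, by 2.25 ± 0.40 and 2.51 ± 0.40 in WT and by 2.05 ± 0.40 and 2.03 ± 0.40 in uMT mice at days 7 and 42. Its day 42 difference had limma adjusted p of 5.50e-04 in WT and 0.00351 in uMT mice, and its uMT day 7 call was kept in 34 of 42 alternatives.

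Integrin chains went both ways. Itga9, a subunit that binds tenascin C, fell in WT mice at day 7 (-2.03 ± 0.56) and in uMT mice at day 42 (-1.91 ± 0.56), and Itga8 fell in WT mice at day 7 (-2.89 ± 0.85). Itgb1, the common beta chain, fell in WT mice at day 42 (-1.87 ± 0.37), and Itga5, the fibronectin receptor's alpha chain, in uMT mice at day 42 (-1.46 ± 0.38). Itgb2, the leukocyte beta chain, rose at day 42 in uMT mice (2.33 ± 0.55) and in WT mice (1.88). Contractile smooth muscle also expresses several of these integrins. Its marker sums given above were lower after CaCl2 in each of these comparisons, also where Itgb2 rose. Their part in the integrin differences was not tested.

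Among 16 relatives of the members, 13 were measured. In WT mice 2 fell at day 7, and 2 rose and 3 fell at day 42, and in uMT mice 1 rose at day 42. Smoc2, a relative of Sparc, rose at day 42 in both genotypes, by 1.30 ± 0.36 and 1.62 ± 0.36. Tnr, another tenascin, and Spock2, a testican proteoglycan, fell in WT mice at both days, Tnr by 2.57 and 2.48 and Spock2 by 2.76 and 1.73 on the log2 scale.

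The list of 12 activated fibroblast genes had 3 higher and 1 lower at day 7 and 5 higher and 2 lower at day 42 in WT mice, and 3 higher at day 7 and 3 higher and 1 lower at day 42 in uMT mice. Ltbp2, a matrix protein of elastic fibres, and Runx1, a transcription factor, were higher in all 4 comparisons, Ltbp2 by 2.12, 3.13, 1.99 and 3.53 and Runx1 by 2.67, 2.50, 2.34 and 2.53, in WT mice at days 7 and 42 and then uMT mice. Fap, a fibroblast surface protease, was higher at day 42 by 2.07 ± 0.28 in WT and 2.74 ± 0.28 in uMT mice. The genes that fell were Acta2 in WT mice at day 7 (-2.07 ± 0.53) and in uMT mice at day 42 (-1.78 ± 0.53), actin that contractile smooth muscle also makes, and Acta2 (-1.96) and Tagln (-1.83) in WT mice at day 42. The uMT Acta2 call was kept in 17 of 42 alternatives.

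Among 12 collagens and other matrix partners of the members, 1 rose at day 7 and 5 at day 42 in WT mice, 1 and 4 in uMT mice, and none fell. Col3a1 rose at day 42 by 1.41 ± 0.23 in WT and 1.72 ± 0.23 in uMT mice, and Col1a1 by 1.70 ± 0.33 and 1.29 ± 0.33. Their median difference at day 42 was 1.12 in WT and 0.83 in uMT mice, where that of all genes was 0.05 and -0.04. For the 9 members these medians were 1.07 and 0.84.

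The 12 genes of resting adventitial fibroblasts had 1 lower at day 7 and 3 higher at day 42 in WT mice and 5 higher at day 42 in uMT mice, led by Lum (2.50 ± 0.49 and 3.11 ± 0.49) and Col14a1 (2.55 ± 0.44 and 2.62 ± 0.44). Of 9 TGF-beta ligands, receptors and induced genes, Ltbp1 fell in WT mice at day 7 (-1.56 ± 0.43) and Tgfbr2 rose at day 42 (1.08 ± 0.34), a call kept in 18 of 43 alternatives, and none was called in uMT mice. Of 13 measured imprinted growth genes, the class to which Mest belongs, 1 was called: Igf2 fell in uMT mice at day 42, by 2.47 on the log2 scale, and since no CaCl2 array there was above background it was at least 3.80-fold lower. Every companion call named here kept its sign in all alternatives run. Those in uMT mice, those in WT mice at day 7 and the WT day 42 calls of Smoc2, Tnr, Spock2, Itgb2, Acta2, Tagln and Tgfbr2 were lost with slide as a random block. All of these WT day 42 calls but that of Acta2 were also lost without the dim sham array. The WT day 42 calls of Ror2, Itgb1, Ltbp2, Runx1, Fap, Col1a1, Col3a1, Lum and Col14a1 were kept in both settings.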

How the data were processed

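RNA of mouse aorta was read on 30 single-colour Agilent arrays, 3 for each of 10 groups, taken from the labels. The deposited scanner files hold spot intensity that the authors obtained with Feature Extraction, version 10.7.1.1 per the file headers and 9.5.1.1 per the submitters' processing notes. The deposited value table of the authors holds normalized intensity of the same arrays on a linear scale, and its log2 was used as an alternative. Coordinates are mm9 per the file headers. The number of per-sample columns left unmapped was 0.

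Spots of a probe were averaged, log2 of the processed signal was taken, and each array's 75th percentile was subtracted. Of 55657 probes, 33224 were kept, and each gene was read from its brightest kept probe. limma 3.58.1 in R 4.3.3 fitted 1 mean per group over all 30 arrays, with Benjamini-Hochberg adjustment over 23267 genes and a threshold of 0.05. The number of arrays limits the precision. The script was tested on simulated data.

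The 9 members are named by rule; companion genes are the called ones of each list, at most the 4 with the lowest p, and others are named after their values were seen. The members and lists were chosen with earlier results of these data known. Alternatives were other background corrections and scalings, filters and probe rules, the compared groups fitted alone, slide and replicate number as blocks, and leaving out arrays.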

Additional observations from a re-analysis of the deposited data

How the results depend on the processing

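The counts of the 9 genes called moved as follows, and unless its construction shows it, the cause was not tested. With normexp background correction 2 genes were called for CaCl2 against sham in WT mice at day 7, 2 at day 42 and 1 in uMT mice at day 42. Those of WT mice at day 7 were Spon2 and Cthrc1, and Tnn, the gene called without normexp, was not among them. Cthrc1 and Spon1 were called in WT mice at day 42, and Spon2 in uMT mice. With no filter the count for uMT against WT at CaCl2 day 42 was 0, and with probes required on 15 arrays it was 0 there and 0 for WT mice at day 7. The Spon2 difference stayed at 3.52 with these filters (limma adjusted p = 0.0600 and 0.0508), and Tnn was not tested with 15 arrays. All-gene counts are not given for the normexp and filter settings, so nothing is read from their counts. With the compared groups fitted alone, on fewer samples, the counts were 4 for WT mice at day 7, 0 at day 42 and 0 for uMT against WT at CaCl2 day 42. In those fits 7849 of all 23267 genes were called for WT mice at day 7 and 0 at day 42. Slide as a random block gave 0 for WT mice at day 7, 0 for uMT mice at day 42 and 0 for uMT against WT at CaCl2 day 42, where 53, 0 and 0 of all 23267 genes were called. Slide as a fixed block, which could be fitted for 7 comparisons, gave 0 for WT mice at day 7. The random block without the dim WT sham day 42 array gave 2 for uMT mice at day 7, 4 at day 42, 4 for the genotype average, 1 for pre and 2 for CaCl2 day 42. All-gene counts in that setting were 4086, 4879, 10631, 2491 and 5566 of 23267 in the same order, so nothing is read from these counts. Without the 6 arrays with under 50% of probes above background, a setting chosen after seeing the data that leaves 1 array each in uMT sham and CaCl2 day 42, uMT mice had 1 at day 7 and 0 at day 42, and uMT against WT at CaCl2 day 42 had 0, so those counts of 0 rest on lone arrays. From CaCl2 day 7 to day 42 in uMT mice, 5 genes were lower without overlap under normexp, quantile normalization, the authors' table, in place of 3, and 5 also without those 6 arrays, where a single day 42 array is easily apart.

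Leaving out 1 array at a time gave 0 to 1 called for WT mice at day 7, 1 to 2 at day 42, 0 to 1 for uMT mice at day 7 and 1 to 4 at day 42. All-gene counts over these fits ran from 233 to 4283, 1286 to 6220, 4 to 2284 and 496 to 3494. For uMT against WT, leaving out 1 array gave 0 to 1 for the average, pre, CaCl2 day 7 and CaCl2 day 42, 0 at sham days 7 and 42 and 0 for the interactions. All-gene counts were 346 to 6036 for the average, 3 to 1598 for pre, 6 to 1177 for CaCl2 day 7 and 80 to 3574 for CaCl2 day 42. For time, the genes apart without overlap numbered 5 in WT mice from pre to sham day 7, 4 to 5 from sham day 7 to day 42, 6 from pre to CaCl2 day 7 and 4 to 5 from there to day 42. In uMT mice they numbered 4, 4, 4 to 6 and 3 to 4. None of the 5 called differences changed sign in any alternative run. With the replicate number as a block, the counts were 1, 1, 0 and 2 for CaCl2 against sham and 1 for uMT against WT at CaCl2 day 42, as without it, while the all-gene count for uMT mice at day 7 went from 208 to 110. Same-numbered samples did not deviate together (median r -0.04, over 0.1 in 32 of 135 pairs), so the number does not pair them. All-gene counts also moved: for WT mice at day 7 from 1534 to between 53 and 7849, at day 42 from 2417 to between 0 and 6220, and for uMT mice at day 42 from 1473 to between 0 and 4879.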
